A study of Platynereis dumerilii with 97 samples.

Results

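In embryos of the marine annelid Platynereis dumerilii, 150 of 10908 listed transcripts were abundant in the first hours after fertilization and had lost most of their share of the counts by 13–17 h. They were chosen by their own levels. A level is given in CPM, counts per 1000000 transcript counts other than those of PT_v1_tr_02502, a transcript that took from 12.8% (73 h) to 70.6% (21 h) of the transcript counts of a library other than that of 62 h. Members had a pooled level of at least 100 CPM at 1–6 h, and under 0.5 of that level both at 13–17 h and at 43–51 h without the 48 h library. Of 1699 transcripts with at least 100 CPM at 1–6 h, 374 met both limits, and the 150 with the lowest ratio of 13–17 h over 1–6 h were kept. The 1549 others are called other early transcripts. Because the levels at 1–6, 13–17 and 43–51 h chose the members, those levels are a description, and tests were made only between embryos of other hours.

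An animal egg is loaded by the mother with RNA that directs the first cleavages. In the maternal-to-zygotic transition, much of this RNA is degraded, often after its poly(A) tail is shortened, while the embryo starts its own transcription. Some genes of the maternal set are transcribed again later in particular tissues, so a transcript that is cleared need not stay low. The earliest library here is from an embryo of 1 h and no unfertilized egg is among the samples, so an origin in the egg was not measured. CEL-Seq primes on the poly(A) tail and reads the 3' end, so a lost transcript and a transcript that lost its tail cannot be told apart.

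The study sampled development at 18 °C in 97 single whole embryos from several matings, with no genotype, strain or treatment named. Ages run hourly from 1 to 95 h, then 97 and 120 h, with 1 embryo per hour, so the replicates of a window are embryos of different hours, and which mating each came from is not given. The windows used are 1–6 h (6 embryos), 7–9 h (3), 10–12 h (3), 13–17 h (5), 18–23 h (6), 25–42 h (18), 43–51 h without 48 h (8), 52–65 h (14) and 66–120 h (32). A whole embryo mixes all its cells, so fewer cells of a type and less RNA per cell cannot be told apart. The files list transcripts by identifier without gene names, so no role is given for any member, and the labelled tissue could not be checked against marker genes.

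Several libraries stood apart. Transcript totals ran from 3555 in the 62 h library to 2577933, with a median of 743666 and a second lowest of 247000; the 62 h library holds no count of any member and is left out of the levels. Levels pooled over 52–120 h also leave out the 72 h library. Sample numbers run in 2 series, a first of 50 embryos (1–51 h without 24 h) and a second of 47 (24 h, and 52 h onward). No label calls these series batches, and from 52 h on age and series cannot be told apart. In the first series 85.9% of the 7500 member values were above 0, with a median of 19 counts, and 16.8% of them were 1 to 5 counts. In the second series 32.4% of 7050 were above 0, with a median of 29 counts, and only 3.98% were 1 to 5 counts. Low counts were thus scarce in the second series, and a 0 there was not read as absence. The 24 h library, in the second series, had counts for 47 members, and the 21 h library had the fewest transcript counts per spike-in count of 18–23 h, 0.740 against a median of 2.22.

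At 1–6 h the pooled level of the members ranged from 100.2 to 5157 CPM, with quartiles of 121 and 249 CPM, and each of the 6 embryos had counts for all 150. Levels at 13–17 h ranged from 1.16% to 33.6% of that at 1–6 h, with a median of 26.4%, against 74.3% for the other early transcripts. Under 25% were 64 members and under 10% only 4. The limit of 150 was not a gap. PT_v1_tr_01780, just inside it, went from 115 to 38.7 CPM (33.5%), and PT_v1_tr_07735, the last member, from 135 to 45.3 CPM. Just outside, PT_v1_tr_00627 went from 389 to 131 CPM and PT_v1_tr_10180 from 100.2 to 33.7 CPM, both 33.6%.

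Summed over the 150, the share of counts was 3.89% at the lowest, 4.59% at the median and 5.12% at the highest of the 6 embryos of 1–6 h. It was 3.34%, 3.37% and 3.95% in the embryos of 7–9 h, and 2.00%, 2.23% and 2.51% in those of 10–12 h. At 13–17 h it had fallen to between 0.899% and 1.60%, with a median of 1.06%. These 4 sets of embryos did not overlap except that the highest embryo of 7–9 h lay above the lowest of 1–6 h. The windows of 1–6 and 13–17 h chose the members, so nothing is read from their separation. The fall was steep between 7 and 15 h and slow afterwards. Medians were 0.826% at 18–23 h (0.574% to 1.16%), 0.615% at 25–42 h (0.547% to 0.706%) and 0.543% at 43–51 h (0.478% to 0.590%), so neighbouring windows overlapped from 13–17 h on.

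**Figure D1:**
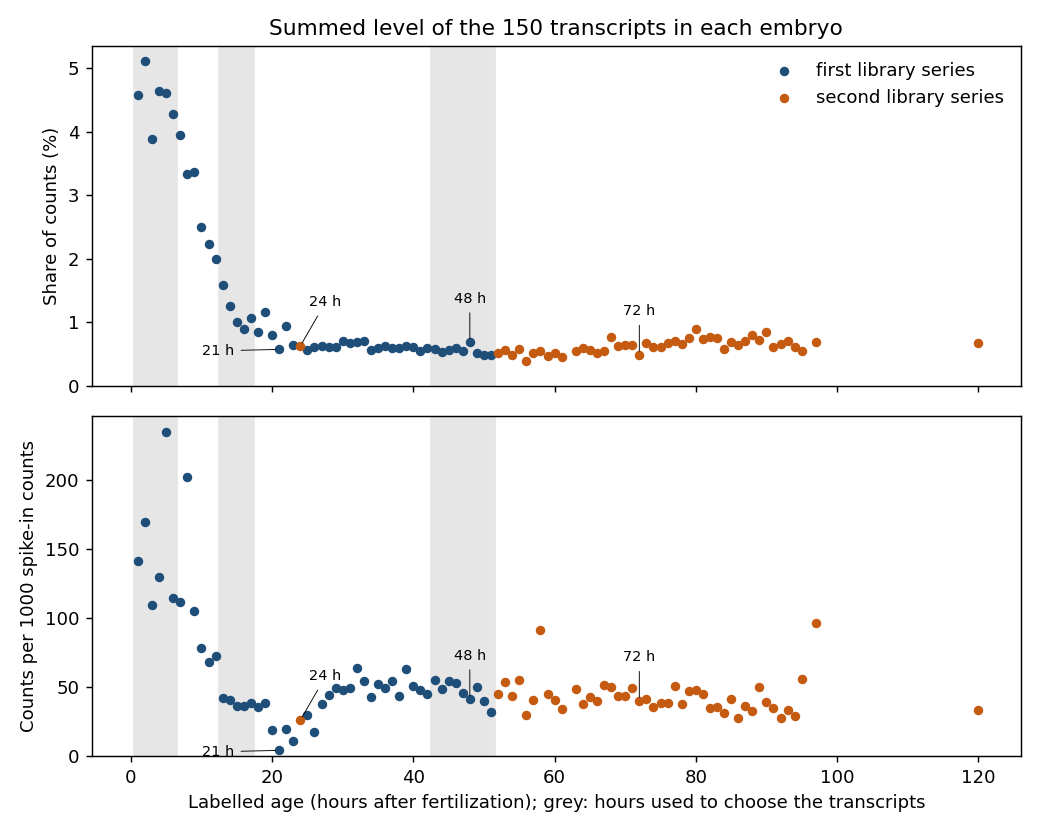
Summed level of the 150 transcripts in each embryo by labelled age, as a share of transcript counts other than PT_v1_tr_02502 (top) and per 1000 spike-in counts (bottom); grey bands mark the hours that chose the members and the 62 h library is left out. The share falls from a median of 4.59% at 1–6 h to 1.06% at 13–17 h and then stays low, while per spike-in the level is lowest at 21 h (4.24) and higher again at 25–42 h.

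Spike-ins, artificial RNAs put into every tube, gave the same order up to 18–23 h and another course later. Members summed to a median of 135 counts per 1000 spike-in counts at 1–6 h (110 to 234), 112 at 7–9 h, 72.3 at 10–12 h, 38.6 at 13–17 h (36.3 to 42.0) and 19.3 at 18–23 h (4.24 to 38.5). At 25–42 h the median was 48.6 and at 43–51 h it was 49.3, above every embryo of 13–17 and 18–23 h. Counts of all transcripts other than PT_v1_tr_02502 per spike-in count rose over the same windows, from a median of 2.22 at 18–23 h to 7.64 at 25–42 h. On the spike-in scale the members therefore reached 14.3% of the level at 1–6 h at their lowest window and stood at 35.9% at 25–42 h, whereas as a share of counts these medians were 18.0% and 13.4%. The part of RNA yield in this difference was not tested.

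The members did not fall together. Relative to 1–6 h, 8 had first dropped under 50% at 7–9 h, 61 more at 10–12 h and the remaining 81 at 13–17 h, the last window at which the choice allowed it. With spike-in scaling these counts were 2, 53 and 95. At 10–12 h 67 of the 150 were under 50% of their level at 1–6 h, against 10.4% of the 1699 transcripts with at least 100 CPM at 1–6 h; since the early level chose the members, nothing is read from this. A level under 25% was first reached by 2 members at 7–9 h, 8 at 10–12 h, 56 at 13–17 h, 58 at 18–23 h and 13 at 25–30 h, and 10 members had not reached it by 42 h. Median levels of the members were 81.1% at 7–9 h, 53.7% at 10–12 h and 17.6% at 18–23 h; those of the other early transcripts were 99.0%, 89.2% and 61.2%. Within 1–6 h, 95 members were higher at 4–6 h than at 1–3 h, near the 65.4% of all 1699 that were.

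**Figure D2:**
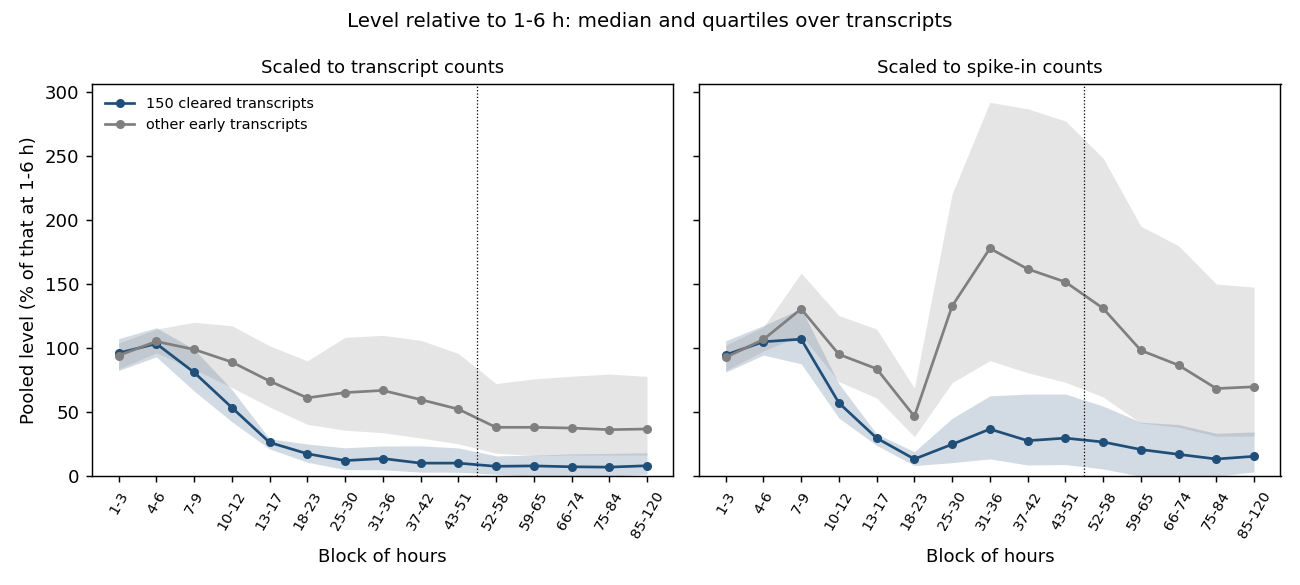
Pooled level in blocks of hours as a percentage of that at 1–6 h, scaled to transcript counts (left) or spike-in counts (right); lines are medians and bands quartiles over the 150 cleared and 1549 other early transcripts, and the dotted line marks the start of the second library series. On the left the median of the 150 falls from 81.1% at 7–9 h to 26.4% at 13–17 h and 10.3% at 43–51 h; on the right both lines rise again after 18–23 h.

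Whether the fall was under way before 13 h was examined between 10–12 h and 7–9 h, with 3 embryos each. Both windows lie between 1–6 h and 13–17 h, whose levels chose the members, so a fall between them was favoured in advance. The shares over all transcripts are therefore given as a description. Pooled levels were lower at 10–12 h for 125 of 150 members, against 62.3% of the 1699. In the edgeR fit all but 1 of the members could be tested, and 120 had a negative log2 change; their median was -0.62, beside -0.04 over all 4361 transcripts tested. Of the members 2 fell at an adjusted p under 0.05, against 0.183% of all tested, and none rose, against 0.206%. At an unadjusted p under 0.05 there were 27 lower and 0 higher, against 4.27% and 5.27% of all tested. With no filter on low counts 6 members fell, against 0.478%.

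PT_v1_tr_00768 was at 1304, 1038 and 926 CPM at 7, 8 and 9 h and at 423, 322 and 415 CPM at 10, 11 and 12 h. The groups did not overlap. The log2 change was -1.48 (SE 0.27, edgeR adjusted p = 0.04877), and the call was lost with spike-in scaling (edgeR adjusted p = 0.157) and whenever any of the 6 embryos was left out (0.0576 to 0.271). At 1–6 h this transcript had 1621 CPM at the lowest, 2055 at the median and 2952 at the highest embryo. By 13–17 h it was at 184.5 to 378 CPM and it did not vanish later, with 19.9 to 297 CPM at 25–42 h.

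PT_v1_tr_00675 and PT_v1_tr_00676 had the lowest ratios of 13–17 h over 1–6 h, and their levels differed widely between single embryos. PT_v1_tr_00675 was at 745, 907, 91.0, 30.4, 309 and 24.4 CPM in the embryos of 1–6 h, in order of age. It was at 478, 206 and 1057 CPM at 7–9 h, then at 48.9, 0 and 12.6 CPM at 10–12 h. The early embryos did not share a level, while every embryo of 7–9 h was above every one of 10–12 h. The log2 change was -4.53 (SE 0.80, edgeR adjusted p = 0.04877), and the call was lost without the embryo of 7, 9, 11 or 12 h. PT_v1_tr_00676 went from 456, 186 and 1096 CPM to 83.4, 7.31 and 0 CPM, a log2 change of -4.01 with an edgeR adjusted p of 0.131.

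These neighbours in the numbering rose and fell in the same embryos. Both were at 0 in 75 of 97 embryos, so their likeness rests on the few others. Over the 30 embryos of 7–12, 18–23 and 25–42 h the correlation of log2(CPM + 10) was 0.985. Over all 11175 pairs of members the median correlation was 0.47. All pairs share the libraries, their depth and the fall with age for which the members were chosen. Members hold 8 pairs with consecutive identifiers. The other high correlations were 0.93 for PT_v1_tr_01625 with PT_v1_tr_01626, 0.94 for PT_v1_tr_07820 with PT_v1_tr_07821 and 0.75 for PT_v1_tr_09846 with PT_v1_tr_09847, and the remaining 4 ran from -0.04 to 0.45. Whether such a pair is a single gene split or duplicated in the transcript set cannot be told from the identifiers, so how many genes the 150 stand for is not known.

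Embryos of 18–23 h were compared with those of 7–12 h, 6 each, none of them used in choosing the members. Between these windows lies 13–17 h, whose low level chose the members, so a fall across it was favoured in advance. The comparison cannot show whether the fall went on after 13–17 h. Median levels relative to 1–6 h were 26.4% at 13–17 h and 17.6% at 18–23 h, beside 74.3% and 61.2% for the other early transcripts. Pooled levels were lower at 18–23 h than at 7–12 h for 147 of 150, against 83.2% of the 1699. The edgeR fit could test 124 members, 26 failing the filter on low counts. Members near 0 at 18–23 h passed this filter only through 7–12 h and could be called only as falls. A total of 30 fell, against 3.73% of the 3513 transcripts tested, and none rose, against 7.86%; at an unadjusted p under 0.05 these were 71 and 1, against 12.7% and 14.4%. The median log2 change of the tested members was -1.40, beside -0.07 over all transcripts tested and -0.23 over the other early transcripts, of which 76 of 1527 fell. With no filter all 150 were tested and 45 fell, against 2.26%. Scaling moved the counts over all transcripts from 131 lower and 276 higher to 260 lower and 53 higher per spike-in, or 7.40% and 1.51% of those tested, while among members 56 fell and 0 rose. With total-count scaling 20 members fell and 0 rose.

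PT_v1_tr_00369, among the most abundant members, showed a graded decline. Its level in CPM was 2136, 3248 and 3847 at the lowest, median and highest embryo of 1–6 h, and 1439, 2116 and 2339 at 7–12 h. At 13–17 h these were 610, 790.5 and 1681 CPM and at 18–23 h 95.1, 351 and 662 CPM, where no embryo reached the lowest of 7–12 h. The log2 change was -2.01 (SE 0.28, edgeR adjusted p = 0.001023). It fell again at 25–42 h, to 0, 44.7 and 109 CPM (log2 change -2.89, SE 0.49, edgeR adjusted p = 0.0002117), with all but 1 embryo of 18–23 h above 25–42 h. It was at most 25.3 CPM at 43–51 h, and was listed at 0 in every library of 52–65 h. At 66–120 h it had counts in 2 of 32 libraries, those of 93 h (61.8 CPM) and 97 h (46.8 CPM), both above all 8 embryos of 43–51 h.

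Among members called in this fit with a mean of at least 50 CPM, the largest falls were those of PT_v1_tr_09881 and PT_v1_tr_07833. Each had 6 counts in all at 18–23 h, against 229 and 218 at 7–12 h. Both thus passed the filter on low counts only through 7–12 h and could be called only as falls. PT_v1_tr_09881 went from 58.5, 85.2 and 166 CPM (lowest, median, highest) at 7–12 h to 0, 2.76 and 8.51 CPM at 18–23 h, a log2 change of -4.10 (SE 0.74, edgeR adjusted p = 0.002198). PT_v1_tr_07833 went from 47.1, 113 and 170 CPM to 0, 1.27 and 17.0 CPM, with a log2 change of -4.09 (SE 0.78, edgeR adjusted p = 0.002528). The groups did not overlap in either. PT_v1_tr_09881 was found again at up to 92.4 CPM at 66–120 h, while PT_v1_tr_07833 was listed at 0 in all libraries of 43–51 h and from 52 h on. PT_v1_tr_01168 fell from 189, 260.5 and 358 CPM to 4.26, 18.2 and 56.1 CPM (log2 change -2.98, SE 0.52, edgeR adjusted p = 0.001779), again without overlap.

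**Figure D3:**
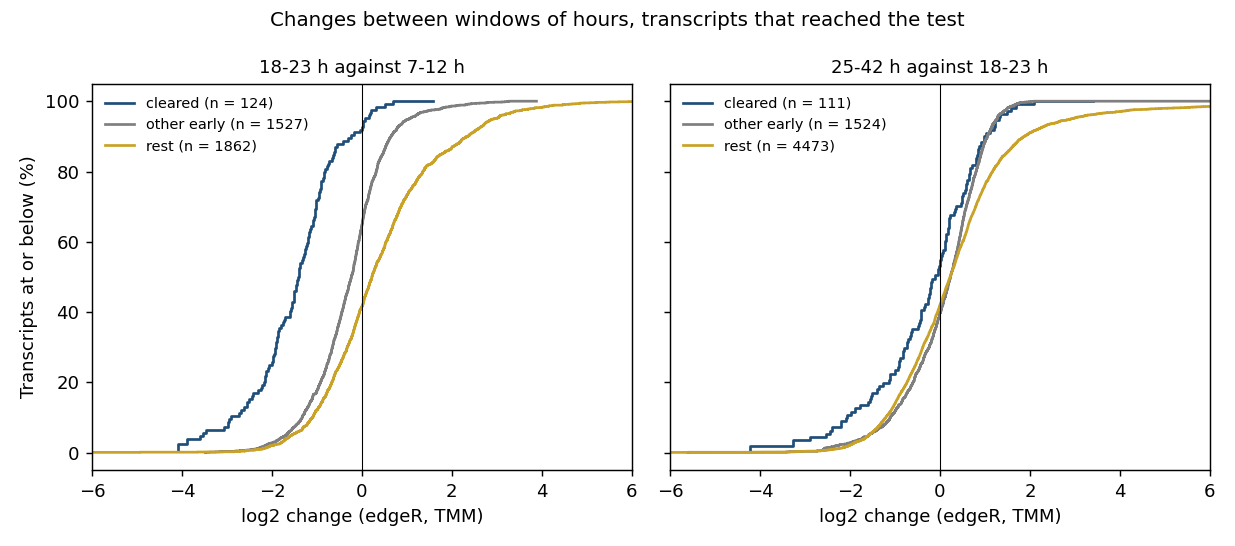
Cumulative share of transcripts at or below each log2 change in the edgeR fits of 18–23 h against 7–12 h (left) and 25–42 h against 18–23 h (right), for tested members, other early transcripts and the rest. On the left the curve of the 124 tested members lies to the left of the others, with a median of -1.40; on the right the 111 tested members have a median of -0.04 with a longer tail of falls.

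Between 18–23 h and 25–42 h, with 6 and 18 embryos, the median log2 change of the members was -0.04, beside 0.22 over all transcripts tested. Of 111 tested, 13 fell, against 7.02% of all 6108 tested, and 1 rose, against 12.0%. With no filter 25 fell and 2 rose, against 5.03% and 8.51%. Spike-in scaling turned the balance: 4 members fell, against 0.295% of all tested, and 54 rose, against 60.3%. The median log2 change was then 1.44 for members and 1.76 for all tested. On both scales the median member lay below the median transcript. A low level in the window that follows 25–42 h chose the members, so few rises and a lower median were favoured in advance. The shares and medians over all transcripts are therefore given as a description.

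PT_v1_tr_07311 and PT_v1_tr_09021 had the largest falls among members called with a mean of at least 50 CPM. PT_v1_tr_07311 went from 0, 83.9 and 412 CPM at 18–23 h to 0, 4.51 and 48.5 CPM at 25–42 h, a log2 change of -4.22 (SE 0.81, edgeR adjusted p = 0.0007455). The groups overlapped, and the highest value came from the 21 h library; without it the log2 change was -3.11 (edgeR adjusted p = 0.01023). PT_v1_tr_09021 went from 10.6, 67.8 and 164 CPM to 0, 4.18 and 41.4 CPM, also with overlap (log2 change -3.27, SE 0.70, edgeR adjusted p = 0.001769). With spike-in scaling these log2 changes were -2.24 and -1.89.

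The member that rose was PT_v1_tr_09892. It had 250, 469 and 669 CPM at the lowest, median and highest embryo of 1–6 h and 10.6, 42.2 and 165 CPM at 18–23 h. At 25–42 h it was at 41.0, 156 and 233 CPM, overlapping with 18–23 h (log2 change 1.21, SE 0.39, edgeR adjusted p = 0.02699). The call was lost without the library of 19, 20, 21 or 23 h (edgeR adjusted p 0.0514 to 0.0755).

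**Figure D4:**
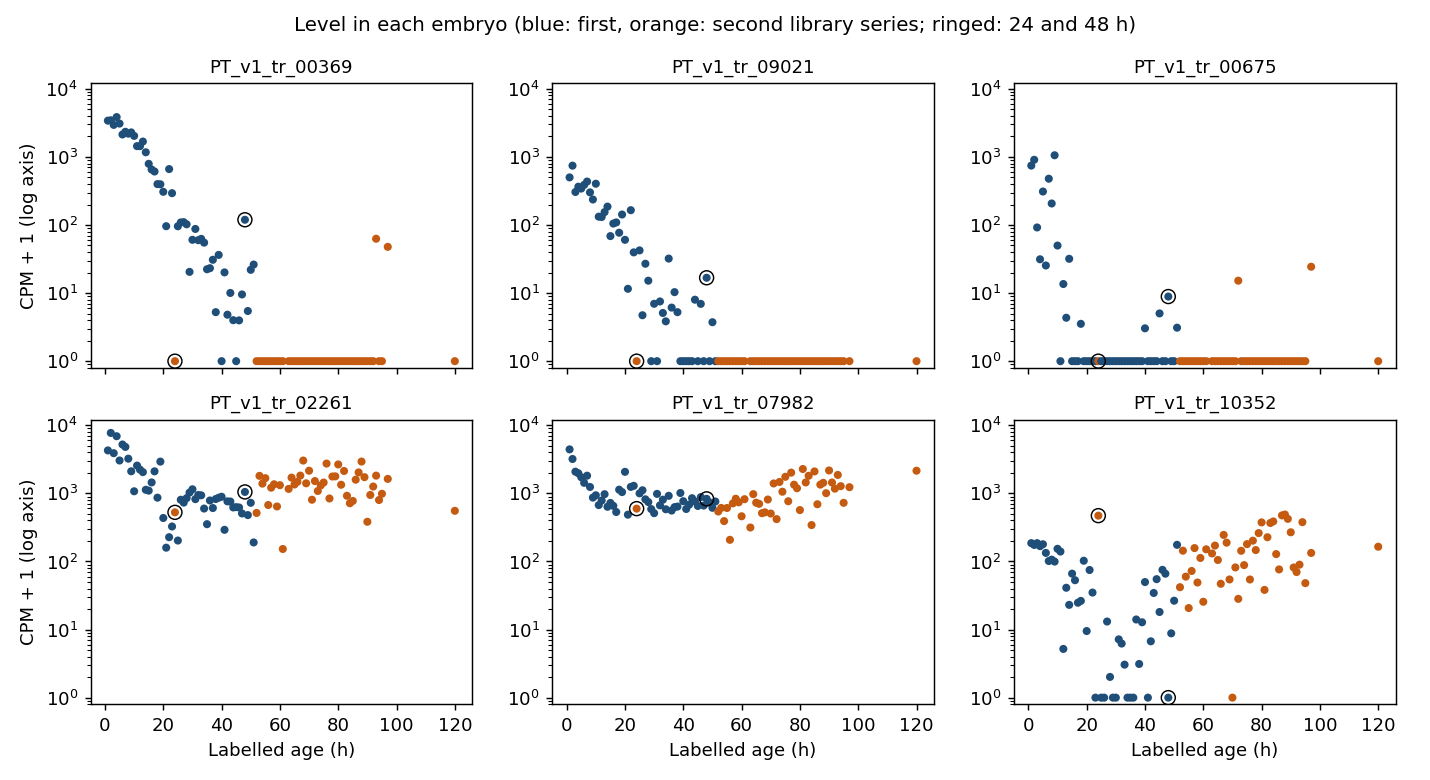
Level of 6 members in each embryo (CPM + 1, log axis) by labelled age; colours give the library series and rings the 24 and 48 h libraries. PT_v1_tr_00369 and PT_v1_tr_09021 decline over the first series to at most 25.3 and 7.00 CPM at 43–51 h without 48 h. PT_v1_tr_00675 is low from 10 h on, and PT_v1_tr_02261 and PT_v1_tr_07982 level off well above 0. PT_v1_tr_10352 is high again in many late embryos of the second series, and in its 24 h library.

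From 52 h on, in the second library series, the members held a median of 0.522% of counts at 52–65 h (0.398% to 0.592%) and 0.668% at 66–120 h (0.489% to 0.889%), with overlap. The median member was at 8.21% of its level at 1–6 h over 52–120 h, against 37.4% for the other early transcripts. Under 10% were 84 members, against 16.2% of the 1699, and this ratio too has the early level that chose the members. Zeros of the second series, not read as absence, enter these levels. At 43–51 h, in the first series, the median was 10.3% and 73 members were under 10%, against 107 of the 1549 others. With spike-in scaling the median over 52–120 h was 19.0%, against 86.7% for the others. Under 10% were then 47 members, against 62 of the 1549. Between 52–65 h and 66–120 h, 62 members could be tested; 0 fell, against 0.652% of all tested, and 0 rose, against 1.14%. At an unadjusted p under 0.05 edgeR had 1 lower and 1 higher, against 3.67% and 4.44%. The DESeq2 test called 0 lower and 1 higher at an adjusted p under 0.05, against 1.06% and 4.40%. With no filter 5 fell and 14 rose, against 3.58% and 5.53% of 10617.

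**Figure D5:**
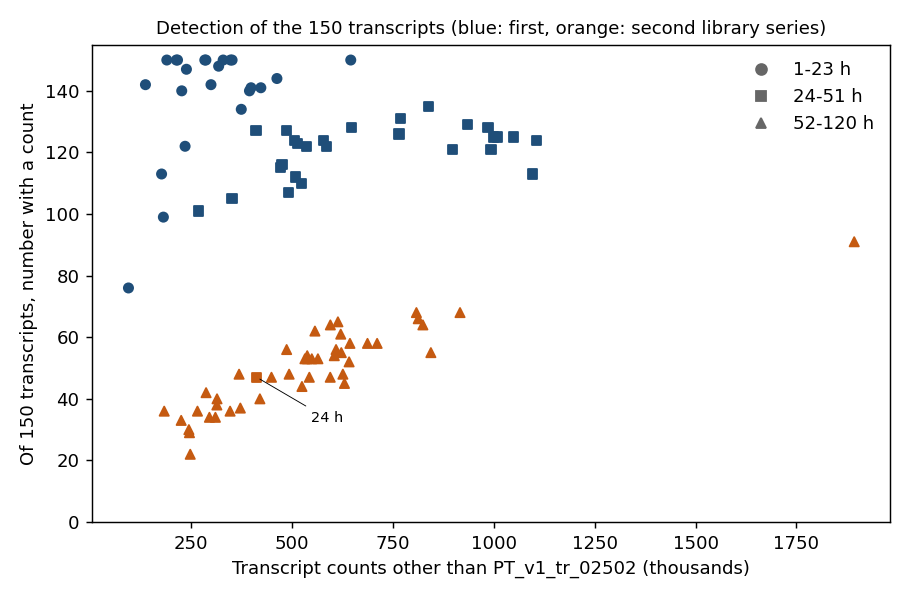
Number of the 150 transcripts with at least 1 count in each library against its transcript counts other than PT_v1_tr_02502, by age (symbols) and library series (colours; 62 h left out). At similar depth the libraries of the second series, the 24 h library with 47 among them, hold counts for fewer members than those of the first.

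Detection differed by series. All 150 had a count in each embryo of 1–6 h, 140 to 144 in those of 13–17 h, 101 to 135 at 25–42 h and 113 to 129 at 43–51 h. At 52–65 h it was 36 to 91 and at 66–120 h 22 to 68. The 24 h library, with 47, lay below every library of the first series. For the step at 52 h, age and series cannot be told apart. In all 46 libraries of 52–120 h 11 members were listed at 0. Without 62 and 72 h this held for 11 of the 150 and for 10 of the 1549 other early transcripts. The low level at 43–51 h chose the members, so nothing is read from this difference. The members at 0 with most counts at 1–6 h were PT_v1_tr_09021 (660 counts) and PT_v1_tr_01168 (639 counts). Given the scarcity of low counts there, no fold change is stated for them.

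Of the member counts listed late, few members held a large part. Over 52–120 h without 62 and 72 h PT_v1_tr_02261 alone held 23.3% of the member counts and PT_v1_tr_02261, PT_v1_tr_07982, PT_v1_tr_00937, PT_v1_tr_03700 and PT_v1_tr_08084 together 50.8%, whereas the 5 most abundant at 1–6 h held 31.4% there. These 5 were singled out after their values were seen. The late libraries are all of the second series, where low counts were scarce, so members at low levels may be missing from these shares. At 43–51 h, in the first series, PT_v1_tr_02261 had a median of 621 CPM, beside a median of 5430 CPM for the summed members. The part of the series in the late shares was not tested. PT_v1_tr_02261 was the most abundant member at 1–6 h, with 3041, 4751 and 7727 CPM. It was at 158, 380 and 2929 CPM at 18–23 h, the highest being the 19 h embryo, at 202, 813.5 and 1148 CPM at 25–42 h and at 382, 1460 and 3035 CPM at 66–120 h. Its late libraries thus overlapped with 13–17 h (1097 to 2108 CPM), and none of the edgeR comparisons called it (18–23 h against 7–12 h, log2 change -1.34, SE 0.53, adjusted p = 0.113).

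PT_v1_tr_07982 had 1427, 2028 and 4430 CPM at 1–6 h and 532, 655 and 973 CPM at 13–17 h. These did not overlap, but both windows chose the members. It was at 486, 1189 and 2072 CPM at 18–23 h and at 511, 713 and 1111 CPM at 25–42 h. With TMM this was a fall of small size (log2 change -0.74, SE 0.20, edgeR adjusted p = 0.008706). Spike-in scaling moved the median log2 change of all transcripts in that fit from 0.22 to 1.76, a shift larger than this fall. Its direction therefore depends on the scaling. At 66–120 h PT_v1_tr_07982 was at 342, 1255 and 2280 CPM, against 207, 611 and 974 CPM at 52–65 h, with overlap. That log2 change of 0.82 (SE 0.27) did not pass in edgeR (adjusted p = 0.136). It is the member that the DESeq2 test called (log2 change 1.15, adjusted p = 7.33e-05), and edgeR called it too with total-count scaling (1.08, adjusted p = 0.00548) and without the 62 and 72 h libraries (0.76, adjusted p = 0.0381).

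Pooled over 52–120 h, 22 members were above their level at 13–17 h, for which no share over all transcripts was taken. At 50% or more of their level at 1–6 h were 5 members, against 606 of the 1549 other early transcripts. With spike-in scaling these counts were 30 and 1093. Both ratios hold levels that chose the members. On the CPM scale the 5 were PT_v1_tr_10352 (80.5%), PT_v1_tr_10309 (58.4%), PT_v1_tr_00937 (57.6%), PT_v1_tr_04923 (56.1%) and PT_v1_tr_08084 (55.1%). PT_v1_tr_10352 had 133, 176 and 185 CPM at the lowest, median and highest embryo of 1–6 h and 22.1, 40.1 and 65.3 CPM at 13–17 h. At 25–42 h it was at 0, 1.53 and 48.9 CPM, and at 43–51 h, still in the first series, at 7.80, 43.7 and 175 CPM. It then had 19.7, 104 and 170 CPM at 52–65 h and 0, 144 and 488 CPM at 66–120 h, so late embryos lay both below and above all early ones. The 175 CPM was that of the 51 h library alone. In the 24 h library, of the second series, the level was also high, unlike in those of 23 and 25 h. From 52 h on, age and series cannot be told apart for this transcript.

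PT_v1_tr_00937 had its lowest median at 13–17 h, with 40.2, 110 and 164 CPM. The lowest embryo of 1–6 h had 310 CPM, and both windows chose the members. It had 118, 210 and 300 CPM at 18–23 h and 59.8, 113 and 181 CPM at 25–42 h, with overlap. With TMM this was a fall (log2 change -0.82, SE 0.26, edgeR adjusted p = 0.02787). This fall too was smaller than the shift that spike-in scaling made in that fit, so its direction depends on the scaling. At 66–120 h PT_v1_tr_00937 ranged from 55.3 to 677 CPM. PT_v1_tr_10309 spread widely already at 1–6 h, from 31.6 to 301 CPM, and from 0 to 251 CPM at 66–120 h. PT_v1_tr_08084 and PT_v1_tr_04923 had medians of 210 and 68.0 CPM at 66–120 h, beside 311 and 104 CPM at 1–6 h, and both had late libraries at 0. None of these 5 was called between 52–65 h and 66–120 h (edgeR adjusted p 0.814 to 0.998).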

How the data were processed

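Single embryos were measured by CEL-Seq after Trizol extraction, per the labels' protocols. The deposited values are raw integer counts by transcript. The tools named, per the submitters' processing notes, were HTSeq 0.5.4p3, Bowtie2 2.1.0 and CASAVA 1.8, and their settings are not given in the sources used here. No molecular identifiers are named, so counts are reads. Summary rows (57.7% of all counts) and 92 spike-ins (4.09%) stayed out of totals and tests, and each of the 97 columns was matched to a sample by the number in its title.

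The members, windows and lists were chosen with earlier results of these data known. Pooled CPM is the summed counts over the summed totals without PT_v1_tr_02502. Windows were compared over all transcripts in R 4.3.3 with edgeR 4.0.16 (quasi-likelihood test with robust dispersions, filterByExpr, TMM), Benjamini-Hochberg adjusted p under 0.05, only the embryos compared in the fit; SE is the size of the log2 change divided by the root of the F statistic. The p-values measure the spread between embryos of different hours. Correlations used a pseudocount of 10 CPM. Fits were also run on simulated counts with a common dispersion and no trend over hours, unlike these windows, so nothing is read from them. Named are the 2 members with the lowest ratios, the 2 most abundant, the 2 largest falls and rises called with a mean of at least 50 CPM, the 2 on either side of the limit, the 2 highest late ratios, the 2 most abundant early of those listed at 0 late, and counts of 5 or fewer in full. Alternatives were other scalings (DESeq2 size factors, total counts, totals without PT_v1_tr_02502, spike-ins), DESeq2 1.42.0, other filters and embryos left out. Tables and plots used Python 3.11.15, numpy 2.4.6, pandas 2.3.3 and matplotlib 3.10.9.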

Additional observations from a re-analysis of the deposited data

Results flagged for a closer look

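In 9 of 90 sets of 5 to 8 embryos examined, the highest or lowest embryo lay far from the others by Dixon's criterion. Its chance rate of about 1 of 20 sets holds for independent replicates. These sets hold embryos of successive hours and share embryos, so the 9 are not set against that rate. At 1–6 h these were PT_v1_tr_00768, highest at 2 h with 2952 CPM, PT_v1_tr_04923, highest at 2 h with 226.6 CPM, and PT_v1_tr_10352, lowest at 6 h with 133 CPM. At 7–12 h the summed member counts per 1000 spike-in counts were highest at 8 h with 202, and PT_v1_tr_10352 was lowest at 12 h with 4.196 CPM. PT_v1_tr_07311 was highest at 14 h with 243 CPM among the embryos of 13–17 h. PT_v1_tr_02261 was highest at 19 h with 2929 CPM among those of 18–23 h. At 43–51 h PT_v1_tr_10352 was highest at 51 h with 175 CPM, and PT_v1_tr_08084 was lowest at 49 h with 56.8 CPM.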

How the results depend on the processing

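No paired analysis was possible because each hour is a single embryo and the labels give no replicate numbers shared between windows. Shares in brackets are those of all transcripts tested that were called the same way in the same setting. The 30 members lower at 18–23 h than at 7–12 h became 57 with totals without PT_v1_tr_02502 (10.2%) and 56 with spike-in scaling (7.40%). They became 59 with DESeq2 (10.3%) and 20 with total counts (1.62%). With single embryos left out they were 24 to 44 (2.12% to 5.88%). None rose in any of these (1.51% to 11.2%). The 13 lower at 25–42 h than at 18–23 h became 4 with spike-ins (0.295%) and 25 with no filter (5.03%). With embryos left out they were 12 to 16 (4.75% to 7.2%). The 1 higher became 54 with spike-ins (60.3%), 6 with total counts (16.9%), 3 with DESeq2 (12.9%) and 2 with no filter (8.51%). It became 2 with a mean of at least 20 CPM (14.8%) and 2 without 21 h (10.1%). With embryos left out it was 0 to 4 (8.61% to 11.9%), and 0 without 20 h or 23 h. The 2 lower at 10–12 h than at 7–9 h became 1 with total counts (0.183%), 4 with DESeq2 (0.436%) and 6 with no filter (0.478%). They became 0 with a mean of at least 20 CPM (0.062%), and 0 to 2 with embryos left out (0% to 0.11%). At 66–120 h against 52–65 h the 0 lower became 5 with no filter (3.58%), and the 0 higher became 14 with no filter (5.53%). The 0 higher became 1 with DESeq2 (4.40%), DESeq2 size factors (2.29%) and total counts (1.98%). It was also 1 with totals without PT_v1_tr_02502 (2.03%) and without 62 and 72 h (1.46%). Per spike-in, the summed level as a percentage of 1–6 h was 82.8 at 7–9 h, 35.9 at 25–42 h, 36.5 at 43–51 h, 32.3 at 52–65 h and 29.3 at 66–120 h, against 73.3, 13.4, 11.8, 11.4 and 14.5 as a share of counts. By 12 h 69 members were under 50% of their level at 1–6 h and 10 under 25%. Of the 150, the choice kept 124 with totals of all transcripts, 134 with TMM totals, 104 with spike-ins and 109 with medians over embryos, and 121 to 137 with an embryo left out. Over all transcripts, lower and higher calls ranged with scaling, tool, filter and the libraries of 21 h or of 62 and 72 h left out from 57 to 361 and 53 to 557 (18–23 h), 18 to 696 and 557 to 3684 (25–42 h), 2 to 47 and 2 to 78 (10–12 h), and 35 to 380 and 44 to 587 (66–120 h). For PT_v1_tr_00768 the adjusted p was also 0.0615 with total counts and 0.0507 with a mean of at least 20 CPM, where that of PT_v1_tr_00675 was 0.0503. The cause of these differences was not tested. Counts of a few reads per embryo limit members at low levels, and 88 members were too low to be tested from 52 h on.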

Other observations

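Of the libraries in no window, that of 24 h was the highest of 18–30 h for 17 members (11.3%), beside 14.0% of the other early transcripts. For PT_v1_tr_10352 it held 470 CPM (194 counts), while the libraries of 23 and 25 h had 0. The 48 h library was the highest of 43–51 h for 49 members (32.7%), beside 37.6% of the other early transcripts. For PT_v1_tr_00369 it held 118 CPM (60 counts), against 8.55 CPM at 47 h and 4.46 CPM at 49 h.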
